A study of Mus musculus with 27 samples.

Results

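The KLF genes (Krüppel-like factors) encode transcription factors that bind GC boxes and CACCC boxes in promoters through zinc fingers at one end of the protein. The genes described are Klf2, Klf3, Klf4, Klf6, Klf7, Klf9, Klf10, Klf11, Klf13 and Klf16, taken by symbol from the deposited counts: 10 of 24000 genes, and 10 of the 17 genes named Klf. Their RNA was measured by sequencing of polyA RNA from the mouse line Ba/F3, pro-B cells that need the cytokine IL3 to grow and survive. The 27 libraries fall into 7 groups, which the labels describe as biological replicates. The groups with hairpins were cells transduced with a lentivirus for a short hairpin against STAT5A (n = 3), STAT5B (n = 3), LSD1 (n = 3, gene Kdm1a) or HDAC3 (n = 3), or with a no-target hairpin (n = 5), and held under puromycin selection for at least 1 week. The wild-type groups were untransduced cells stimulated with IL3 (n = 5) and cells deprived of it (n = 5). All 7 groups went without IL3 for 6 h, and all except deprived wild type were then given 10 ng/mL IL3 for 30 min. The labels name each hairpin by its target and give neither the number of hairpin sequences nor whether lines were clonal.

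Members of the family differ in the partners they recruit. Klf2, Klf4, Klf6 and Klf7 mostly activate transcription through acetyltransferases, Klf3 represses through the corepressor CtBP, and Klf9, Klf10, Klf11, Klf13 and Klf16 repress through SIN3A and its histone deacetylases. Several are immediate-early genes, and in lymphocytes Klf2 is known for holding cells quiescent and for keeping the trafficking receptor gene S1pr1 switched on. STAT5A and STAT5B carry the IL3 signal to the nucleus, where they bind GAS elements, while LSD1 (a histone demethylase) and HDAC3 (a histone deacetylase) serve in corepressor complexes.

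Each library had between 5.48 M and 33.8 M reads counted in genes, and no library pair within a group agreed within sampling noise (chi-square per degree of freedom of at least 9.9 in 42 pairs). The hairpins lowered their targets: Stat5a (log2 fold change -1.48, adjusted p = 0.000254), Stat5b (-1.81, 9.84e-07), Kdm1a (-0.91, 0.00126) and Hdac3 (-1.18, 0.0130), each against the no-target hairpin with no overlap between libraries, by edgeR's quasi-likelihood test. Of 14 pro-B markers 2 reached a mean of 1 CPM (Cd79a and Cd79b), with a summed level of 42.8 to 121 CPM, while Pax5, Ebf1 and Rag1 were at or near 0. The IL3 receptor genes Il3ra, Csf2rb and Csf2rb2 and the kinase gene Jak2 were present, while Kit, listed with them, was at or near 0. The libraries of HDAC3 hairpin 1 and 2, LSD1 hairpin 1 and no-target hairpin 1 and 3 stood apart, with 14 to 24.9% of uniquely placed reads assigned to no gene and 5.48 M to 7.53 M counted reads, against 8.70 to 12% and 8.47 M to 33.8 M reads in the other 22. These 5 are called the off-gene libraries, and the main estimates they move are given with and without them.

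All 10 genes were matched to GENCODE vM21 annotation (GRCm38/mm10) as protein-coding genes. Klf6 lies at chr13:5861482-5870394 on the plus strand, Klf9 at chr19:23141226-23168134 (plus), Klf3 at chr5:64803388-64832901 (plus), Klf10 at chr15:38291463-38300706 (minus) and Klf16 at chr10:80567124-80577321 (minus). Promoter sequence from RefSeq (GRCm38.p6, 250 bases before to 50 after the start of transcription) was matched for 8 of the 10 genes, without Klf10 and Klf16. The 3 promoters printed here belong to the genes with sequence that passed the test after IL3 in at least one fit, namely Klf6 (chr13:5861239-5861538, plus), Klf9 (chr19:23140976-23141275, plus) and Klf3 (chr5:64803271-64803570, plus). Capitals mark matches on either strand to 3 motifs: the GC box (GGGCGG), the box spelled CACCC, which reads GGGTG on the other strand, and the GAS element of STAT proteins (TTCNNNGAA).
Klf6 promoter: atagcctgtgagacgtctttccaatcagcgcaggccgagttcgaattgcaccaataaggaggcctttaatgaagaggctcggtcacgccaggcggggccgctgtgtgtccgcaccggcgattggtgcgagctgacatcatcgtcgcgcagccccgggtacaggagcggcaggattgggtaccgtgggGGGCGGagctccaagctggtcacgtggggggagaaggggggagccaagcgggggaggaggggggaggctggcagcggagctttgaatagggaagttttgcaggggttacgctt
Klf9 promoter: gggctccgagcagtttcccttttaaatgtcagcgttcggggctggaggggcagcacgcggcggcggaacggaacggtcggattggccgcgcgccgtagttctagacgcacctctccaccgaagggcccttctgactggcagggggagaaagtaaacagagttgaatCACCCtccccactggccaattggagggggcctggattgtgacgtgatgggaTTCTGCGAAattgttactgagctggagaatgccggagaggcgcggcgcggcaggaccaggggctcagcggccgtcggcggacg
Klf3 promoter: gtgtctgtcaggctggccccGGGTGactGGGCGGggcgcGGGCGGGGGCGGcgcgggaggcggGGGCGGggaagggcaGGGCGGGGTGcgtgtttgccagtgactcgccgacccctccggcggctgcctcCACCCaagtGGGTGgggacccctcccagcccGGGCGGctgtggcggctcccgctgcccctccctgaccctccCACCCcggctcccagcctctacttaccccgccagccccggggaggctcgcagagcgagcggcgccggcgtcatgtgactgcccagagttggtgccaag

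The Klf6 promoter held 1 GC box, at -63 to -58 from the start, and no CACCC box. The Klf3 promoter was the densest of the 3, with 6 GC boxes and 5 CACCC boxes, of which the GC box at -172 to -167 shares a base with the CACCC box at -167 to -163. The Klf9 promoter had no GC box, 1 CACCC box (-84 to -80) and 1 GAS element (-33 to -25). Over the 8 promoters, 7 held a GC box and 5 a CACCC box, against 35.7% and 57.5% of the 32851 mouse promoters of the same length. Klf9 was the 1 of 8 with a GAS element, which 8.3% of all promoters held. The GC content of these promoters was 58.3 to 77.7%, against a median of 52.7%. Further searches on both strands found the E-box CACGTG in 3 of the 8 (7.15% of all promoters) and the forkhead motif GTAAACA in Klf9 alone (3.65%). The CRE motif TGACGTCA, TATAAA and the CArG box were in none of the 8, against 1.79%, 13.6% and 1.63% of all promoters. These are matches of letters within the window and were not tested for binding.

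Levels are given in CPM, the count scaled to the size of the library. Set against each other per kb of merged exon, Klf6 stood above the other 9 genes in all 7 groups, at 54.6 ± 14.8 CPM per kb with the STAT5B hairpin, 53.4 ± 15.3 with the LSD1 hairpin, 40.4 ± 21.3 with the no-target hairpin, 34.2 ± 12 with the STAT5A hairpin, 32.4 ± 20.6 with the HDAC3 hairpin, 28.2 ± 4.87 in stimulated and 11.1 ± 2.44 in deprived wild type (SD). Klf16 and Klf13 had group means of 5.55 to 11.5 CPM per kb, and Klf10, Klf9 and Klf11 of 0.886 to 7.86, so that these 5 genes overlap across groups. Klf7 and Klf3 were the lowest of the expressed genes in each group, at 0.151 to 1.58 CPM per kb. Of the other 7 Klf genes, Klf1, the erythroid activator, was the 1 gene whose mean passed that of Klf6, in both wild-type groups (74.2 ± 19.2 CPM per kb stimulated and 124 ± 32.3 deprived, n = 5 each). Klf8 lay among these middle genes, at 4.10 to 6.31 CPM per kb, and Klf5, Klf12, Klf14, Klf15 and Klf17 had 0 to 3 counts per group.

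**Figure D1:**
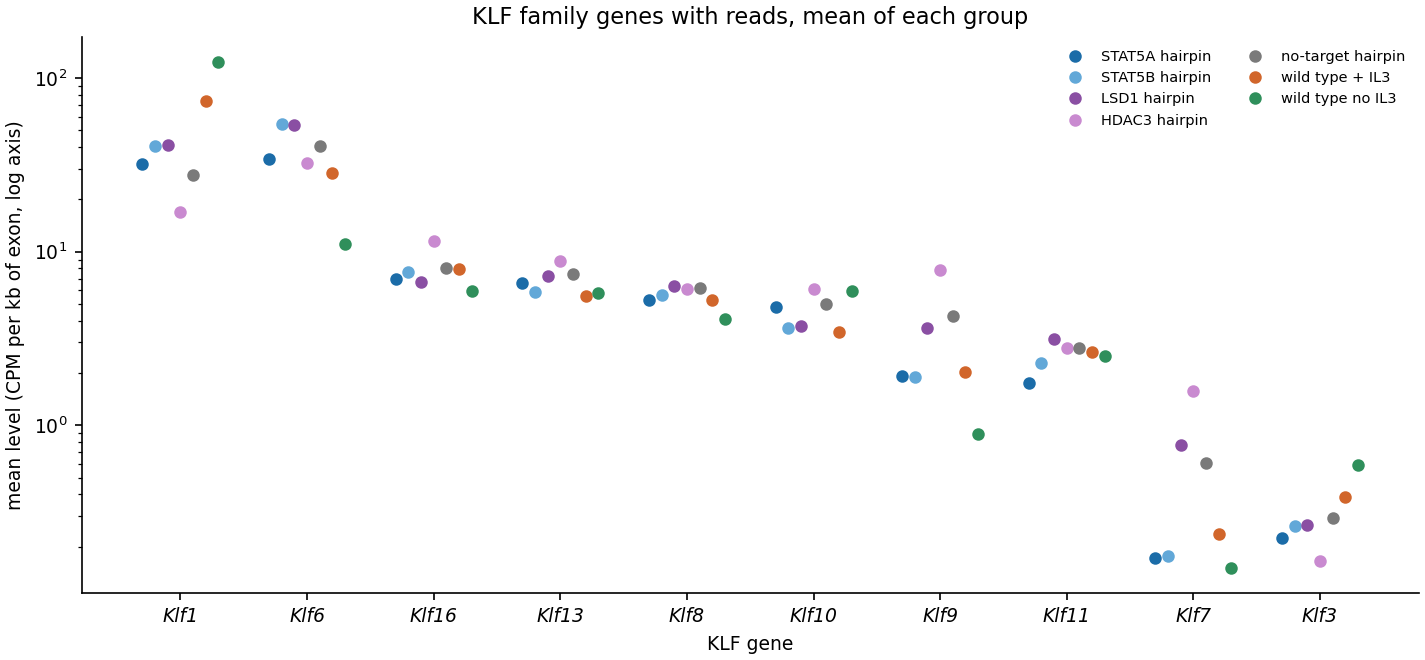
Mean level of the 8 tested KLF genes and of Klf1 and Klf8, in CPM per kb of merged exon on a log axis, with 1 point per group of 3 to 5 libraries. Klf6 is the highest of the described genes in all 7 groups, and Klf3 and Klf7 lie lowest, below 2 CPM per kb.

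Klf2 and Klf4 were not detectable above counting error. Klf2, the quiescence factor, had 0 counts in all 10 wild-type libraries, and over the hairpin libraries it had 3 counts with the LSD1 hairpin (all in off-gene library 1), 1 with the STAT5B hairpin and 2 with the no-target hairpin. Klf4, known as a pluripotency and monocyte factor, had 2 counts, in the same LSD1 library, and 0 elsewhere. A count of 0 allows a level of up to 0.0889 to 0.528 CPM (3 counts, depending on the library's depth, counting error only). Neither gene passed the filter on low counts, so tests cover 8 of the 10 genes.

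The first comparison asked how the genes answered 30 min of IL3 in wild-type cells. Klf6, a zinc-finger activator counted among the immediate-early genes, rose. Its level was 123, 149, 113, 94.9 and 139.9 CPM in the 5 stimulated libraries, against 44.7, 60.7, 35.6, 44.2 and 59.1 CPM in the 5 deprived ones. Every stimulated library lay above every deprived one, and the means lay further apart than the SD of either group. These 2 groups did not overlap, in either direction, for 11.2% of all genes. The means were 124 ± 21.4 CPM stimulated and 48.8 ± 10.7 CPM deprived (SD, n = 5 each), a log2 fold change of 1.34 (SE 0.32, 95% interval 0.68 to 2.01, adjusted p = 0.0143, edgeR's quasi-likelihood test with Benjamini-Hochberg adjustment over 12073 genes). Klf6 was the 1 of 8 tested KLF genes called, in a comparison that called 3.82% of all genes (3% higher, 0.82% lower). In bulk RNA, fewer cells expressing a gene and less RNA per cell cannot be told apart.

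Libraries of the same replicate number deviated together in wild type, so a fit with the number as a block was also made. Under this replicate block the log2 fold change of Klf6 was 1.36 (SE 0.08, adjusted p = 8.11e-05), and stimulated over deprived ratios within the 5 pairs ran from 2.15 to 3.17. The block called 22.4% of genes (13.3% higher, 9.09% lower) and 5 of the 8 tested KLF genes. The call for Klf6 was lost when the 4 libraries with few multi-mapped reads were left out, which include replicate 2 of both wild-type groups (1.35, adjusted p = 0.0676, with 1.95% of all genes called).

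**Figure D2:**
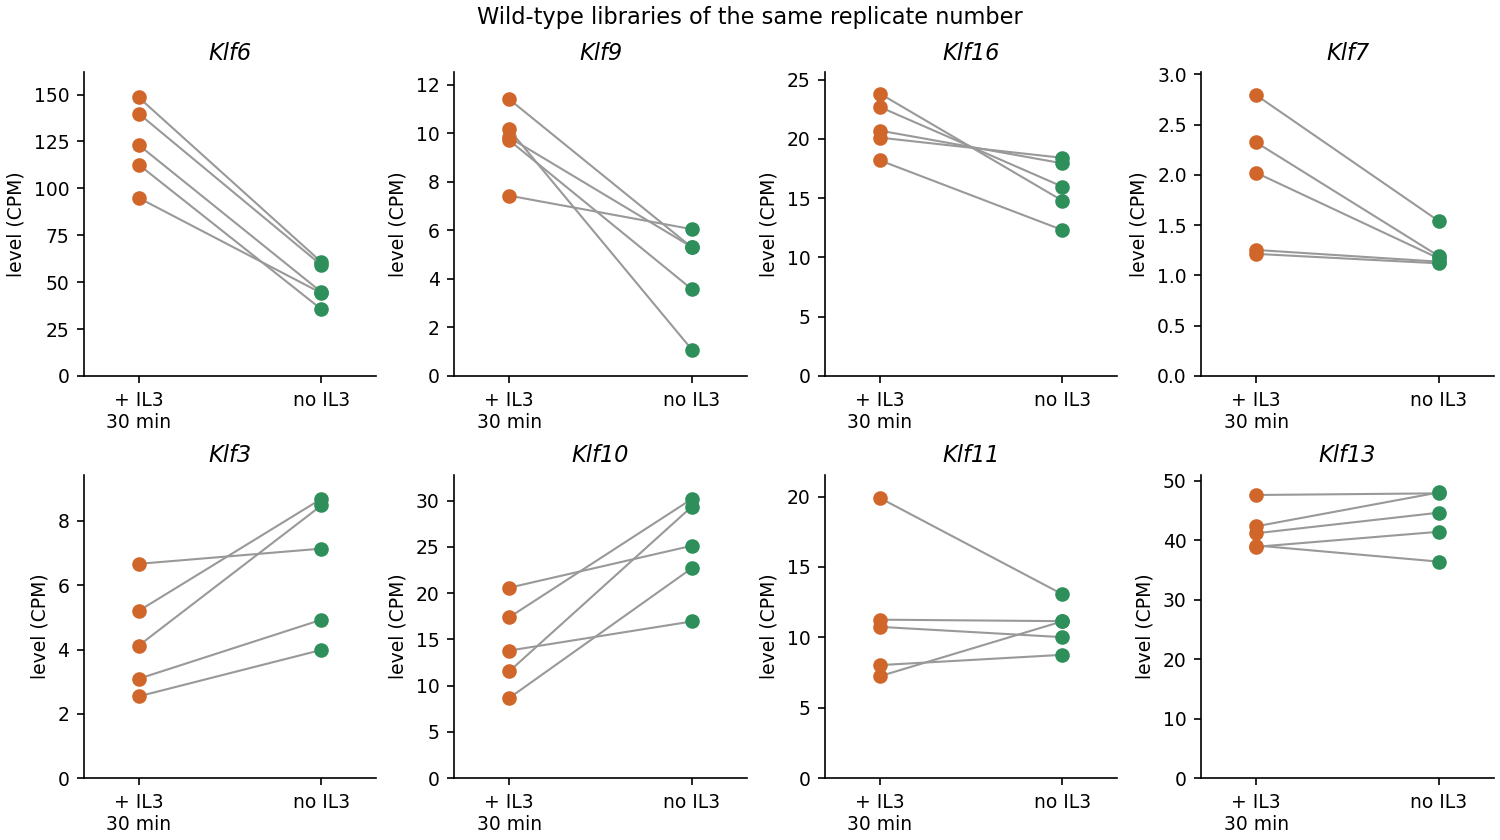
Level in CPM of the 8 tested KLF genes in IL3-stimulated (left) and IL3-deprived (right) wild-type libraries, 5 of each, with lines joining libraries of the same replicate number. Klf6, Klf9, Klf16 and Klf7 are higher after IL3 in 5 of 5 pairs, Klf3 and Klf10 are lower in 5 of 5 pairs, and the lines of Klf11 and Klf13 run both ways. The share of all genes that run the same way in 5 of 5 pairs was not counted.

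Klf9, a SIN3-recruiting repressor that glucocorticoids induce, showed the next largest difference. It had 9.83, 7.43, 10.2, 11.4 and 9.72 CPM in stimulated cells, against 5.31, 6.05, 1.08, 5.30 and 3.57 CPM in deprived cells. The groups did not overlap, as was so for 11.2% of all genes, and deprived replicate 3 lay far below the rest. Stimulated over deprived ratios in pairs 1 to 5 were 1.85, 1.23, 9.39, 2.15 and 2.72, so pair 3 stood far from the others. The log2 fold change of 1.19 (SE 0.49, 95% interval 0.18 to 2.19) had an adjusted p of 0.236, while the block gave 1.27 (SE 0.33, adjusted p = 0.0299). It was also called when the wild-type libraries were fitted alone (1.19, adjusted p = 0.0442), without the off-gene libraries (1.19, 0.0365) and with that class as a term (1.19, 0.0153). These 3 fits, which use the same wild-type libraries, called 10.5%, 7.17% and 7.78% of all genes, and over all 18 alternatives the adjusted p of Klf9 ran from 0.0153 to 0.488.

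Klf10 and Klf3 ran the other way. Klf10, first described as a TGF-beta inducible early gene, had 20.6, 11.5, 13.8, 17.4 and 8.66 CPM in stimulated cells, against 25.1, 29.4, 16.9, 30.2 and 22.7 CPM in deprived cells. The groups overlapped, but the stimulated library was the lower one in 5 of 5 pairs, with ratios of 0.382 to 0.819. The share of all genes that ran the same way in 5 of 5 pairs was not counted, which also limits the counts of pairs for Klf3, Klf16 and Klf7. The log2 fold change was -0.79 (SE 0.34, adjusted p = 0.271), and -0.79 (SE 0.18, adjusted p = 0.0221) under the block. Klf3, the CtBP-recruiting repressor and a target of Klf1 in red cells, had 6.66, 2.54, 3.09, 5.20 and 4.12 CPM in stimulated cells, against 7.14, 3.99, 4.93, 8.69 and 8.48 CPM in deprived cells. The groups overlapped here too, with the stimulated library lower in 5 of 5 pairs (ratios 0.486 to 0.934). Its log2 fold change was -0.61 (SE 0.29, adjusted p = 0.336), and -0.61 (SE 0.15, adjusted p = 0.0283) under the block. The erythroid markers, of which 2 of 6 were present (Gata1 and Epor), summed to 294 to 426 CPM stimulated and 418 to 515 CPM deprived. Under the block Gata1 was at -0.45 (adjusted p = 0.0089) and Epor at -0.67 (adjusted p = 0.00394), and their part in the value of Klf3 was not tested.

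Klf16, another SIN3-recruiting repressor, had 20.1, 18.2, 22.7, 23.8 and 20.7 CPM in stimulated cells, against 18.4, 12.3, 16.0, 14.8 and 17.9 CPM in deprived cells. Of the stimulated libraries only replicate 2 reached into the deprived range, and the stimulated library was higher in 5 of 5 pairs. The log2 fold change of 0.41 (SE 0.23, adjusted p = 0.461) was called only under the block (0.42, SE 0.10, adjusted p = 0.0264). Klf7, an activator best known from neurons, was low at 1.21 to 2.79 CPM stimulated and 1.12 to 1.54 CPM deprived, and it was higher in 5 of 5 pairs without a call in either fit (0.62, SE 0.73, adjusted p = 0.765; block 0.56, 0.0714). Klf11, the TGF-beta inducible relative of Klf10, and Klf13, known from the Ccl5 promoter of T cells, showed no called difference. Klf11 had 7.24 to 19.9 CPM stimulated and 8.76 to 13.1 CPM deprived (log2 fold change 0.08, 95% interval -0.60 to 0.77), and Klf13 had 38.9 to 47.6 CPM stimulated and 36.4 to 48.0 CPM deprived (-0.06, -0.37 to 0.24). The median log2 fold change over the 8 genes was 0.25, against -0.02 over all genes tested. At an unadjusted p under 0.05 the count was 4 of 8 (Klf6, Klf9, Klf10 and Klf3), against 1690 of 12073 genes.

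Genes that act with the family were followed through lists of partners, regulators and targets. None of the 4 tested SP factors (zinc-finger proteins that bind the same GC boxes), 10 cofactors, 7 upstream kinases and factors of Klf2 and Klf4, or 8 ubiquitin ligases was called after IL3 by edgeR. At an unadjusted p under 0.05 these lists held 1 (Sp2), 0, 0 and 2 (Smurf1 and Vhl) genes, and DESeq2 called 1 (Sp2), 0, 0 and 1 (Smurf1). Among 9 tested TGF-beta pathway genes 1 was called, Skil, which encodes a repressor of SMAD signalling (59.4 ± 13.7 CPM stimulated and 22.4 ± 1.64 CPM deprived, log2 fold change 1.41, SE 0.29, adjusted p = 0.00396). Among 9 tested KLF targets 1 was called, Cdkn1a, the cell-cycle inhibitor p21 and a reported target of Klf6 and Klf4, at 885 ± 201 CPM stimulated and 203 ± 34.1 CPM deprived (2.12, SE 0.20, adjusted p = 1.08e-07). Of 6 tested glucocorticoid-responsive genes, Dusp1, a phosphatase of MAP kinases, was higher (204 ± 43.3 CPM stimulated and 9.38 ± 1.64 CPM deprived, 4.44, adjusted p = 3.25e-08) and Tsc22d3, the glucocorticoid-induced leucine zipper, lower (7.98 ± 2.48 CPM stimulated and 22.4 ± 1.84 CPM deprived, -1.48, adjusted p = 0.000113).

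Under the replicate block 5 of 8 ubiquitin ligases (Siah1a, Smurf1, Smurf2, Vhl and Wwp1), 4 of 7 upstream kinases and factors of Klf2 and Klf4 (Foxo3, Map3k2, Mef2a and Mef2d) and 1 of 4 SP factors (Sp2) were higher, in a fit that called 13.3% of all genes higher and 9.09% lower. Their log2 fold changes ran from 0.27 to 0.68. Of the 10 cofactors, the acetyltransferase genes Ep300 (0.38) and Kat2b (0.61) were higher and Kat2a (-0.22) was lower in that fit. Smad7 (-0.63, adjusted p = 0.0118) and Cdkn1b (-0.48, adjusted p = 0.0169) were lower. The glucocorticoid-responsive genes Per1 (0.40, adjusted p = 0.0362) and Zbtb16 (0.36, adjusted p = 0.0174) were higher. Of the 2 tested Klf genes outside the described set Klf8 was higher (0.36, adjusted p = 0.0232) and Klf1 lower (-0.73, adjusted p = 0.00267). Among cell type markers outside the erythroid list the block called the receptor genes Csf2rb (0.56) and Csf2rb2 (0.67) and the T cell marker Cd8a (0.96) higher, and Cd79b (-0.40) and the mast cell marker Cma1 (-0.29) lower, and their part in the KLF values was not tested.

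Each gene's profile over the 7 groups was taken as its log2 group means minus their own average, so that the level itself does not count. The 2 profiles most like that of Klf6, of 9122 candidates, were those of Nfil3 (root mean square difference 0.22 on the log2 scale) and Tpm4 (0.24). Since the 7 groups include both wild-type groups, a rise after IL3 was part of what these genes were chosen by. Their values in that comparison are therefore a description and no independent test. Nfil3, a basic leucine zipper repressor, had a mean of 109.8 CPM stimulated and 23.0 CPM deprived (log2 fold change 2.26, SE 0.56, adjusted p = 0.0191), a call lost when any 1 of 5 wild-type libraries was left out (deprived 1, 3 or 4, or stimulated 4 or 5; adjusted p of 0.0527 to 0.0606), without the filter on low counts (0.0666) or without the libraries with few multi-mapped reads (0.111). Tpm4, a tropomyosin gene, had 70.3 CPM stimulated and 30.3 CPM deprived (1.21, SE 0.27, adjusted p = 0.0084).

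Across the hairpin groups the spread within a group was wide for several KLF genes. Klf6 had 131, 109.8 and 209.8 CPM with the STAT5A hairpin, 238, 176 and 306 with the STAT5B hairpin, 311, 209 and 184 with the LSD1 hairpin, 122, 241 and 64.2 with the HDAC3 hairpin and 120.0, 86.5, 325, 147 and 208 with the no-target hairpin. All 17 libraries lay above the deprived wild-type range, HDAC3 hairpin 3 by the smallest margin. The share of all genes with such a gap was not counted, and the hairpin cells differ from deprived wild type in transduction and selection besides IL3. In the order of the group means (STAT5B, LSD1, no-target, STAT5A and HDAC3 hairpin, stimulated, then deprived wild type) the single step larger than the SD of both neighbours was that between stimulated and deprived wild type.

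**Figure D3:**
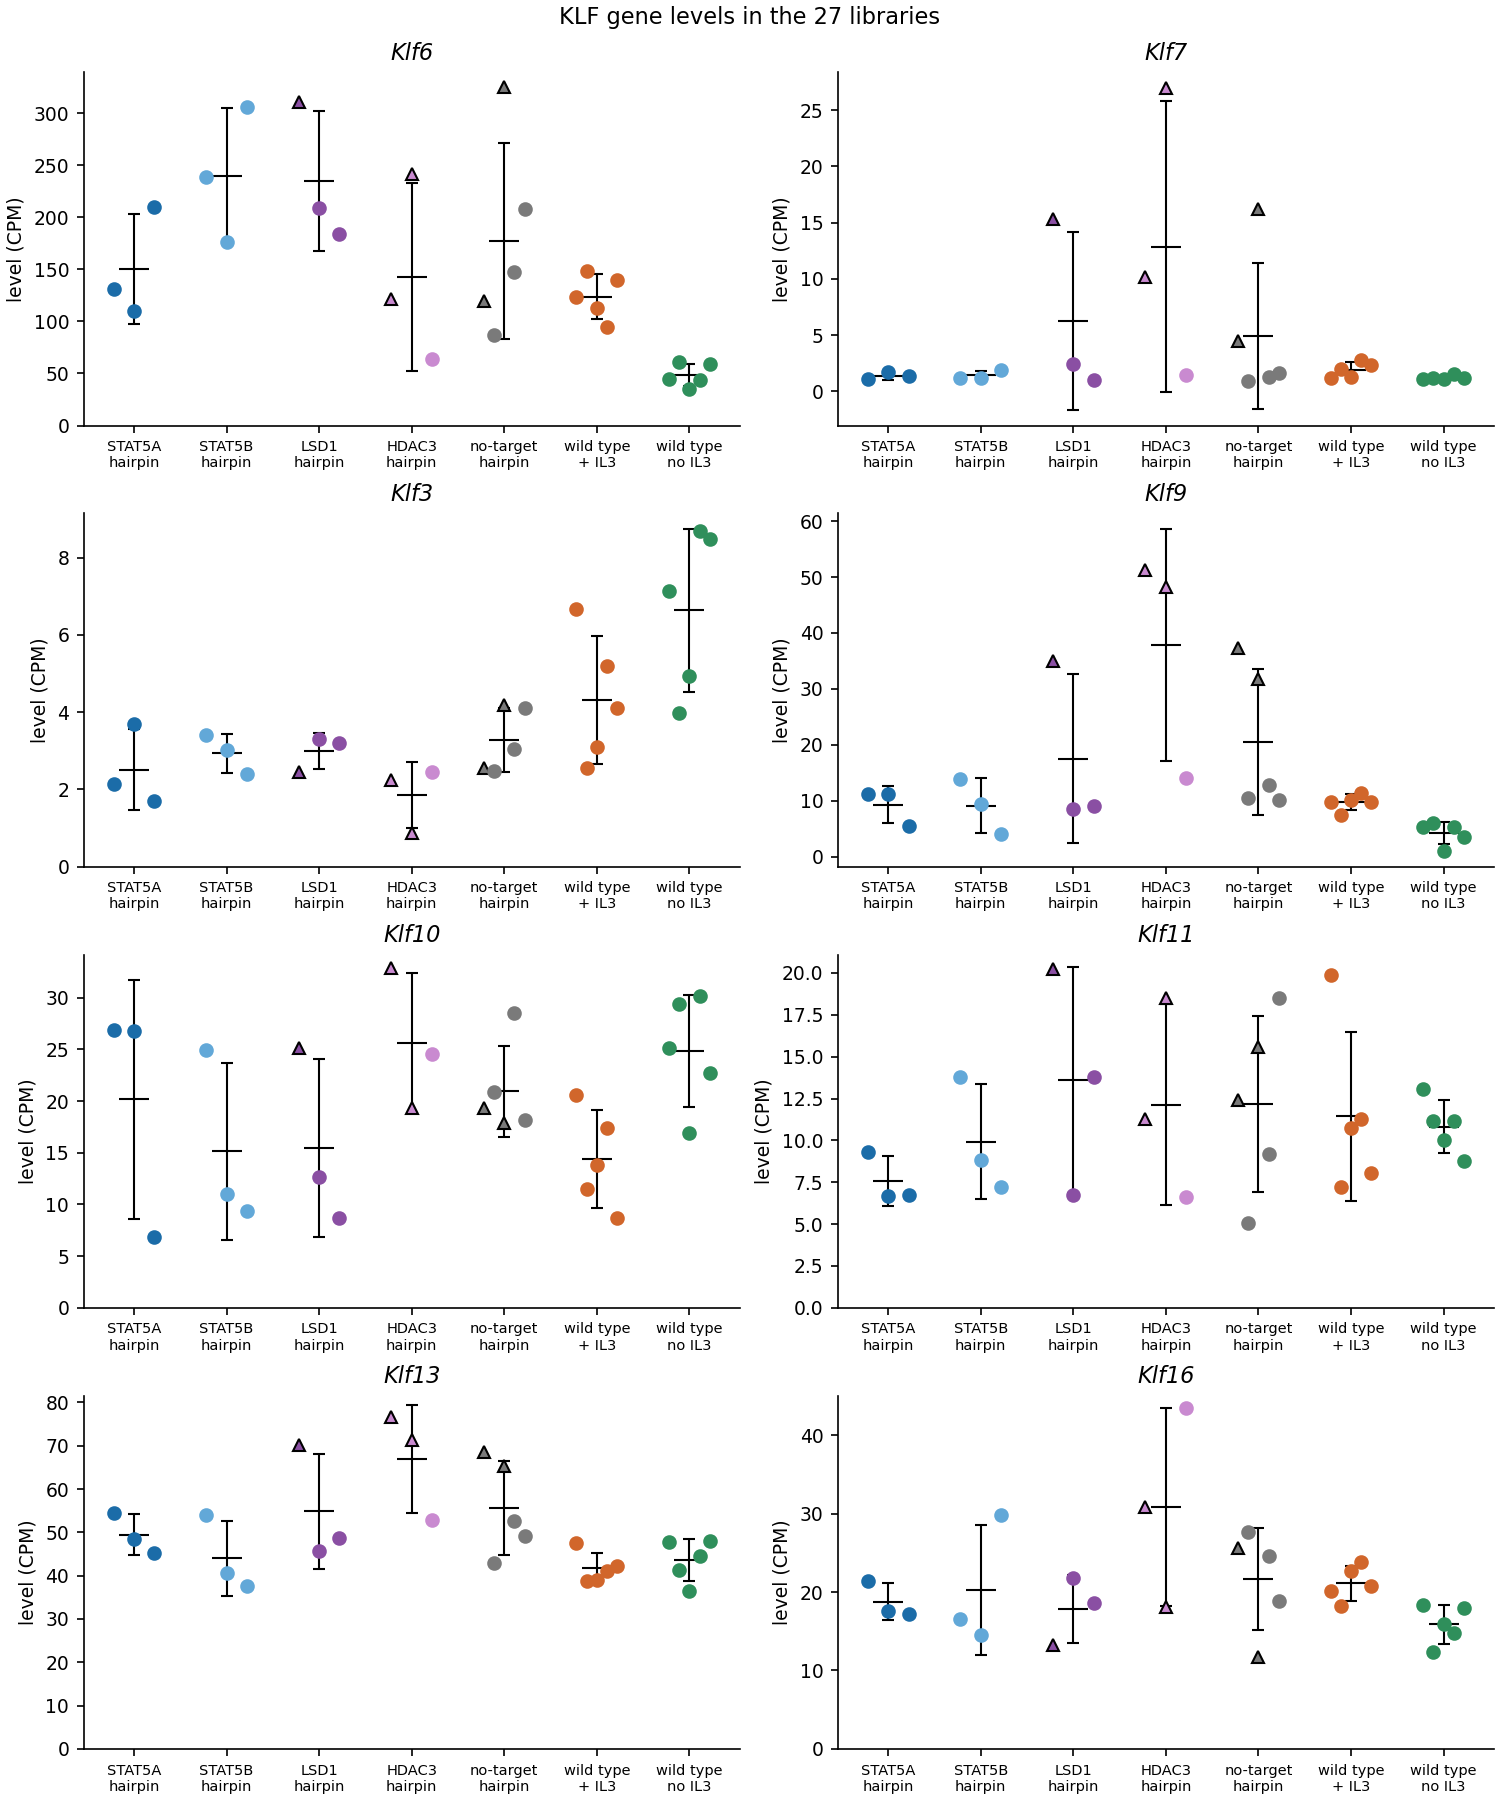
Level in CPM of the 8 tested KLF genes in each of the 27 libraries by group, with the mean and SD of the group. Triangles are the 5 libraries with 14 to 24.9% of reads outside genes, which take the highest places of their groups for Klf7, Klf9 and Klf13.

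The off-gene libraries held the high values of 3 genes. Klf7 was at 4.46 to 27 CPM in these 5 libraries, against 0.948 to 2.48 CPM in the other 12 hairpin libraries. Klf9 was at 31.8 to 51.2 CPM in the 5, against 4.08 to 14.1 CPM in the 12. Klf13 was at 65.4 to 76.5 CPM in the 5, against 37.6 to 54.5 CPM in the 12. The ranges of these 3 genes did not overlap, as was the case for 27.9% of all genes tested (14.6% above and 13.3% below). The other 5 tested genes overlapped, Klf6 with 120.0 to 325 CPM in the 5 and 64.2 to 306 CPM in the 12. No wild-type library and no STAT5 hairpin library belonged to that class, and within the LSD1, HDAC3 and no-target groups the classes held 1 to 3 libraries each.

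**Figure D4:**
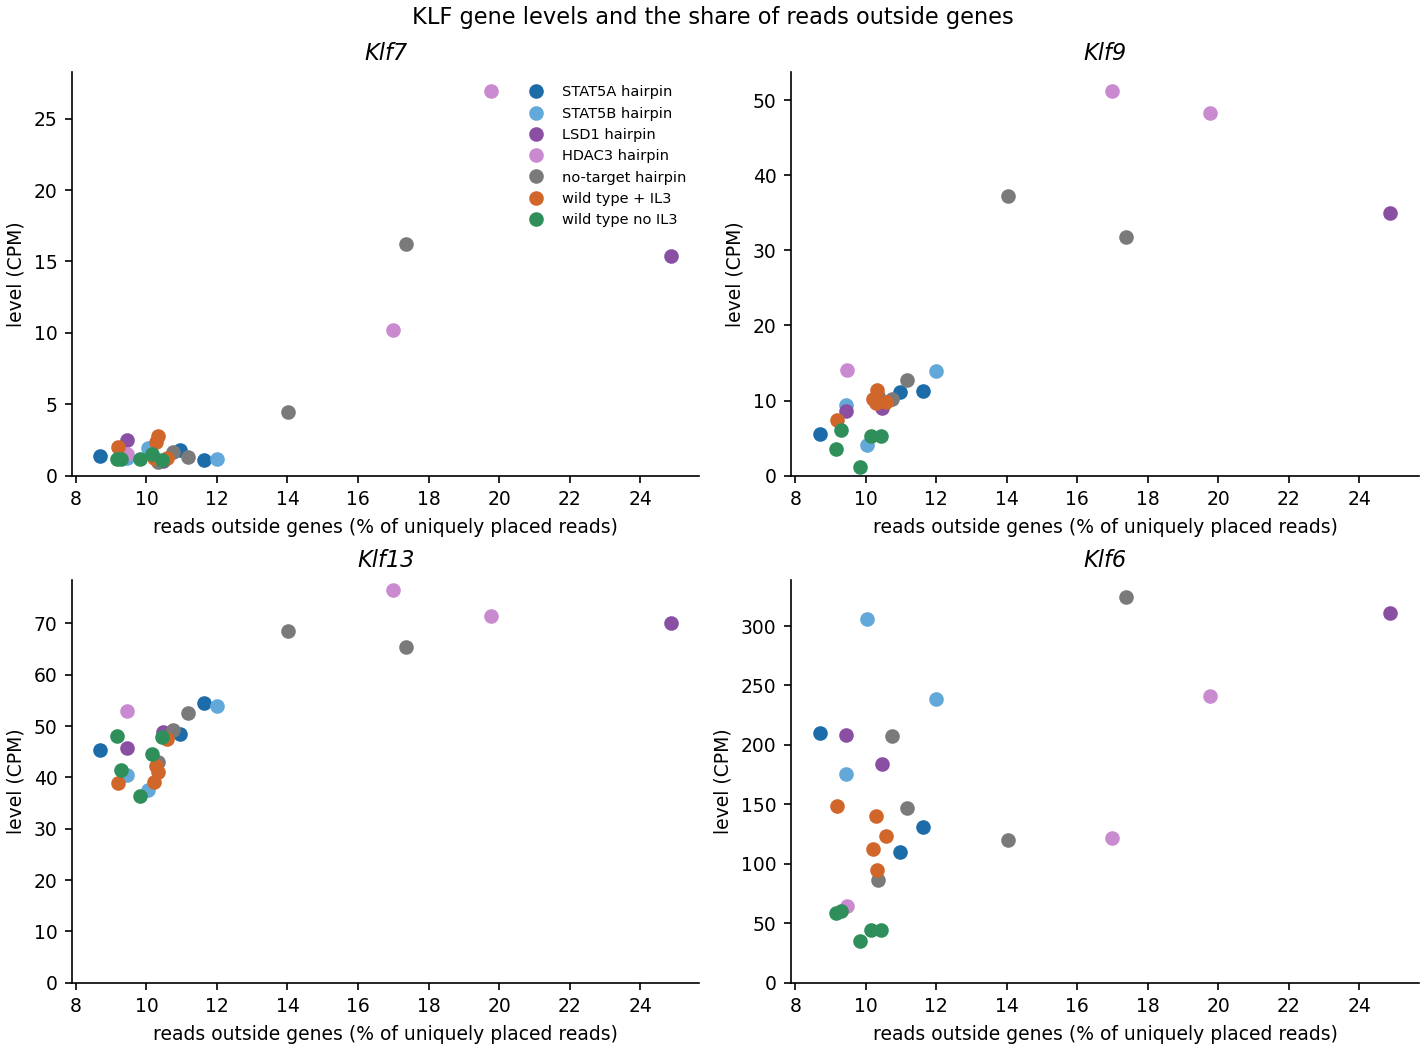
Level in CPM of Klf7, Klf9, Klf13 and Klf6 against the percentage of uniquely placed reads outside genes, 1 point per library, coloured by group. The 5 libraries above 13% are the highest for Klf7, Klf9 and Klf13, whereas for Klf6 they lie at 120.0 to 325 CPM, within or just above the values of the other hairpin libraries (64.2 to 306 CPM).

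The knockdown comparisons asked whether a hairpin against STAT5A, STAT5B, LSD1 or HDAC3 changed the genes in stimulated cells. Part of each target's RNA remained, with means of 26.0 CPM for Stat5a, 33.0 for Stat5b, 77.0 for Kdm1a and 58.2 for Hdac3. With the no-target hairpin these were 72.3, 116, 145 and 132 CPM. None of the 8 tested KLF genes was called with the STAT5A hairpin (0.0663% of all genes called), the STAT5B hairpin (0.34%), the LSD1 hairpin (0.166%) or the HDAC3 hairpin (0.0248%), each against the no-target hairpin. At an unadjusted p under 0.05 the counts of KLF genes were 0, 0, 0 and 1, and those of all genes 1016, 1925, 810 and 687. DESeq2 also called 0 KLF genes in each. The 4 comparisons share the no-target libraries. The median log2 fold changes of the 8 genes were -0.32, -0.31, -0.07 and 0.28, against medians of -0.02 to 0 over all genes.

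With the STAT5 hairpins the estimates for Klf6 had intervals on both sides of 0, at -0.24 (95% interval -0.99 to 0.52, adjusted p = 0.813) for STAT5A and 0.44 (-0.30 to 1.18, adjusted p = 0.519) for STAT5B. Without the off-gene libraries they were 0.03 and 0.70 (adjusted p = 1 and 0.431). Klf9, whose promoter holds the GAS element, had 11.3, 11.2 and 5.48 CPM with the STAT5A hairpin and 13.9, 9.36 and 4.08 CPM with the STAT5B hairpin, against 37.3, 10.5, 31.8, 12.8 and 10.2 CPM with the no-target hairpin. The high no-target values were those of replicates 1 and 3, and the remaining libraries overlapped. The log2 fold changes of -1.14 for STAT5A (adjusted p = 0.566) and -1.14 for STAT5B (adjusted p = 0.323) were both -0.27 without the off-gene libraries. Klf7 behaved alike, with -1.79 for STAT5A and -1.77 for STAT5B on all libraries, and 0.07 and 0.08 without those libraries.

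Klf13 had 53.9, 40.6 and 37.6 CPM with the STAT5B hairpin, against 68.5, 43.0, 65.4, 52.5 and 49.2 CPM with the no-target hairpin. The groups overlapped, and the log2 fold change of -0.34 (95% interval -0.69 to 0.02, adjusted p = 0.335) was -0.13 without the off-gene libraries. Klf10, Klf11, Klf16 and Klf3 had log2 fold changes of -0.68 to -0.06 with the STAT5A hairpin and -0.46 to -0.10 with the STAT5B hairpin. The myeloid markers summed to 317 to 822 CPM with the STAT5A and 413 to 706 CPM with the STAT5B hairpin, against 129 to 307 CPM with the no-target hairpin (7 of 12 markers present). Cd14 and Clec4e were called higher by edgeR with the STAT5A hairpin, and Lyz2 with the STAT5B hairpin. Both STAT5A calls were lost without STAT5A library 3 (log2 fold change 1.036 for Cd14 and 1.105 for Clec4e, adjusted p = 0.955 and 0.136). They were also lost without the off-gene libraries (6.24 and 1.40) and without no-target library 1 (adjusted p = 0.212 and 0.0567). Both held by DESeq2, with RLE factors, and without STAT5A library 1 or 2 or no-target library 2. The Lyz2 call was lost without any 1 STAT5B library (adjusted p of 0.0521 to 0.175) and without the off-gene libraries (log2 fold change 1.14). The part of these markers in the KLF values was not tested. The direct comparison of the STAT5A with the STAT5B hairpin called 0 of the 8 KLF genes by edgeR and by DESeq2 (0.0248% of all genes called by edgeR), with 0 KLF genes and 409 of all genes at an unadjusted p under 0.05. Its largest estimate was Klf6, at -0.68 (95% interval -1.52 to 0.17, adjusted p = 1).

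**Figure D5:**
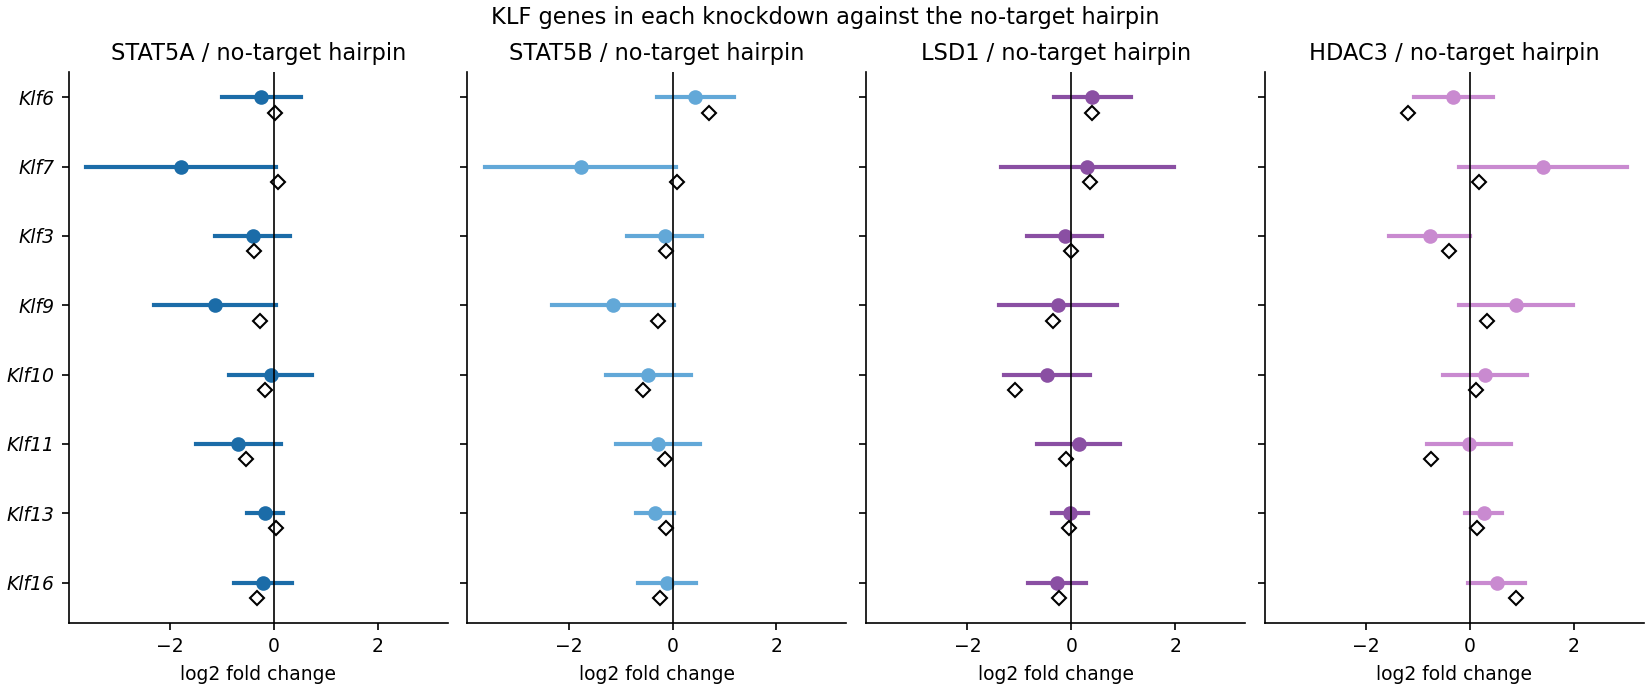
Log2 fold change of each tested KLF gene in each knockdown against the no-target hairpin, with its 95% interval (filled points and bars) and, as open diamonds, the estimate without the 5 off-gene libraries. For Klf7 and Klf9 the STAT5A and STAT5B estimates lie between -1.79 and -1.14 with all libraries and between -0.27 and 0.08 without the 5.

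The HDAC3 hairpin gave the 1 KLF gene with an unadjusted p under 0.05. Klf3 had 2.23, 0.881 and 2.46 CPM with the HDAC3 hairpin, against 2.57, 2.49, 4.18, 3.05 and 4.10 CPM with the no-target hairpin. All 3 HDAC3 libraries lay below all 5 no-target libraries, as in 2.45% of all genes for either direction, but the gap between the groups was small beside the spread within them. The log2 fold change of -0.78 (SE 0.37, 95% interval -1.55 to -0.01) had an adjusted p of 0.861, and it was -0.40 without the off-gene libraries. Klf16 had 30.9, 18.1 and 43.4 CPM with the HDAC3 hairpin and 25.7, 27.6, 11.7, 24.5 and 18.8 CPM with the no-target hairpin, which overlap (0.52, 95% interval -0.03 to 1.06, adjusted p = 0.870; 0.88 without the class, adjusted p = 0.429). Klf6 was at -0.32 (-1.08 to 0.44) with all libraries and at -1.20 with the 1 HDAC3 library outside the class. Klf7 and Klf9 were at 1.40 and 0.89 with all libraries, and at 0.18 and 0.33 without the class. Klf11 was at -0.02 with all libraries and at -0.74 without the class (adjusted p = 0.878).

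With the LSD1 hairpin the estimates ran from -0.46 for Klf10 (95% interval -1.29 to 0.36) to 0.40 for Klf6 (-0.34 to 1.14), with adjusted p of 0.999 for all 8 genes. Without the off-gene libraries Klf10 was at -1.09 (adjusted p = 0.605) and Klf6 at 0.41. Klf7 had 15.4, 2.48 and 1.01 CPM with the LSD1 hairpin and 4.46, 0.948, 16.2, 1.3 and 1.66 CPM with the no-target hairpin, with 1 library far above the rest in each group, both of them off-gene libraries. Set directly against the HDAC3 hairpin, the LSD1 hairpin called 0 of 8 KLF genes by edgeR and by DESeq2 (0.82% of all genes called by edgeR), with 1 KLF gene and 1719 of all genes at an unadjusted p under 0.05. That gene was Klf16, at 13.2, 21.8 and 18.6 CPM with the LSD1 hairpin and 30.9, 18.1 and 43.4 CPM with the HDAC3 hairpin. The groups overlapped, since HDAC3 library 2 was as low as the LSD1 libraries (-0.78, SE 0.30, 95% interval -1.41 to -0.16, adjusted p = 0.229; -1.11 without the class, adjusted p = 0.166). Klf6 was at 0.72 in this comparison (adjusted p = 0.439), and at 1.61 without the class (adjusted p = 0.181). Klf10 was at -0.75 with all libraries and -1.21 without the class, Klf11 at 0.17 and 0.64, Klf3 at 0.66 and 0.40, Klf9 at -1.14 and -0.68, and Klf7 at -1.09 and 0.20, none of them called. The myeloid markers summed to 339.6 to 564 CPM with the LSD1 hairpin, 121 to 124 CPM with the HDAC3 hairpin and 129 to 307 CPM with the no-target hairpin. The mast cell and basophil markers (5 of 8 present) summed to 82.9 to 1329, 73.9 to 639 and 103 to 469 CPM in the same order. Of these, Cpa3 was called higher with the LSD1 hairpin than with the no-target hairpin by edgeR. That call was lost without LSD1 library 2 (log2 fold change 1.10) or without the off-gene libraries (5.33). Leaving out no-target library 1, 2, 4 or 5 also lost it (adjusted p of 0.0616 to 0.121). So did the off-gene class as a term (0.105), no filter on low counts, the replicate block and a fit of the 2 groups alone. The call held by DESeq2, with RLE factors, and without LSD1 library 1 or 3 or no-target library 3. The part of these markers in the KLF values was not tested.

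Among the KLF targets, S1pr1, the receptor through which lymphocytes leave tissues and a known Klf2 target, was higher with the LSD1 hairpin than with the HDAC3 hairpin (34.5 ± 11.2 CPM and 10.9 ± 3.70 CPM, n = 3 each, 1.67, SE 0.38, adjusted p = 0.0376), with Klf2 at 3 counts, all in LSD1 library 1, and 0 counts in those groups. The libraries did not overlap, as in 10.5% of all genes, and the call was lost without any 1 of the 3 HDAC3 libraries (adjusted p of 0.0735 to 0.0839) or without LSD1 library 2 (0.226). It was also lost when the 2 groups were fitted alone (0.514), under the replicate block (0.284) and without the off-gene libraries (log2 fold change 2.32, adjusted p = 0.113). Lgals3, encoding galectin-3, was called with the STAT5B hairpin (4.47, SE 0.89, adjusted p = 0.0270) on the value of 1 library, 78.2 CPM, with the other STAT5B libraries at 0.879 and 1.27 CPM and the no-target libraries at 0.135 to 2.37 CPM; without that library it was -0.14 (adjusted p = 0.962). No other listed partner, regulator or target of the family was called in a knockdown comparison.

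No-target cells and stimulated wild type were compared next, which differ in transduction and selection. No KLF gene and no other gene was called (0% of 12073 genes; 122 by DESeq2, none of them a KLF gene). At an unadjusted p under 0.05 there were 2 of 8 KLF genes (Klf13 and Klf9) and 2042 of all genes. Klf13 had 68.5, 43.0, 65.4, 52.5 and 49.2 CPM with the no-target hairpin, against 47.6, 38.9, 39.1, 41.1 and 42.3 CPM in stimulated wild type. Replicates 1 and 3 of the no-target hairpin were the high ones, and the groups overlapped (0.41, SE 0.15, 95% interval 0.11 to 0.72, adjusted p = 0.225; 0.20 without the class). Klf9 likewise was at 1.07 (SE 0.48, adjusted p = 0.267) and at 0.20 without the class, and Klf7 at 1.34 (adjusted p = 0.332) and -0.52. Klf6 was at 0.52 (95% interval -0.13 to 1.17, adjusted p = 0.380), and at 0.25 without the class. Klf1 lay at 42.1 ± 12.5 CPM with the no-target hairpin and 114 ± 29.4 CPM in stimulated wild type, a gap without overlap, as in 5.35% of all genes, that was not called (-1.43, SE 0.36, adjusted p = 0.136). Klf1 and Klf8 were singled out after their values were seen.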

How the data were processed

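PolyA RNA libraries made with the TruSeq RNA kit were counted by the authors, who deposited unnormalized counts for each gene symbol in separate files for the 27 libraries, each with 5 HTSeq summary entries. Per the submitters' processing notes the tools were Trimmomatic 0.30, TopHat2 2.0.10, HTSeq 0.5.4p5 and DESeq2 1.2, with the mm10 build. The counting mode, strand setting and annotation are not given in the sources used here, so reads of overlapping genes cannot be told apart. Library sizes and tests do not use the summary entries.

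From these counts, CPM were computed with edgeR's TMM scaling factors. One edgeR 4.0.16 quasi-likelihood fit (R 4.3.3, limma 3.58.1, robust, filterByExpr) over all 27 libraries, with 1 mean for each group, tested 8 comparisons over 12073 genes. The threshold for a call was a Benjamini-Hochberg adjusted p of 0.05. Fold changes are the first-named group over the second. Per-kb levels used merged exon lengths of GENCODE vM21, to which 22574 of 24000 symbols matched once. Reads that are PCR duplicates cannot be recognised in such counts, so limits cover counting error only, and p-values measure the spread between these libraries.

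The replicate numbers pair the wild-type libraries: deviations from the group means correlated at 0.375 to 0.716 in all 5 pairs, a hint from the data, since the labels give the numbers without saying what they share. In the other comparisons at least 1 pair was under 0.1. Alternatives were DESeq2 1.42.0, RLE factors, no filter, only the 2 groups compared, the replicate block, leaving out each library in turn, and leaving out the libraries with over 13% of reads outside genes. That class as a term, and leaving out the 4 libraries with under 0.195 multi-mapped reads per counted read, were chosen after seeing the data. The fit was tested on simulated counts with known fold changes, drawn independently for each library. That simulation held neither paired replicates nor off-gene libraries, so it does not cover either feature of these data.

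The members and gene lists were chosen with earlier results of these data known. All 10 members are reported, with called list genes (up to 4 per list and comparison) and the 2 genes closest to each called member in their group means (mean of at least 5 CPM).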

Additional observations from a re-analysis of the deposited data

Results flagged for a closer look

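In 24 gene and group combinations of 5 libraries, 3 held a library far from the rest by Dixon's test, which chance alone does in about 1 of 20. Klf7 with the no-target hairpin was at 16.2 CPM in replicate 3, against 0.948 to 4.46 CPM in the other 4 libraries. That library is one of the 5 off-gene libraries. Klf10 with the no-target hairpin was at 28.5 CPM in replicate 4, against 17.9 to 20.9 CPM in the other 4. Klf7 in deprived wild type was at 1.54 CPM in replicate 4, against 1.12 to 1.19 CPM in the other 4. What sets these libraries apart was not tested.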

How the results depend on the processing

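The count of KLF genes called after IL3 in wild type was 1 and stayed at 1 (Klf6) with RLE factors, without the filter, with DESeq2 and without any 1 of the 10 wild-type libraries. It was 2 (Klf6 and Klf9) when only the 2 groups were fitted, 2 without the off-gene libraries and 2 with that class as a term. It was 5 under the replicate block and 0 without the libraries with few multi-mapped reads, where Klf6 kept its direction (1.35, adjusted p = 0.0676). Over the 18 alternatives the log2 fold change of Klf6 ran from 1.25 to 1.45, with adjusted p of 8.11e-05 to 0.0676. The cause of these changes was not tested.

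In the other 7 comparisons 0 KLF genes were called in any alternative, the replicate block included, although the numbers do not pair those libraries. The block changed no other call of a KLF gene. The number of all genes called moved more: from 461 after IL3 to between 240 and 2504, from 8 (STAT5A) to between 0 and 32, from 41 (STAT5B) to between 0 and 171, from 20 (LSD1) to between 0 and 64, from 3 (HDAC3) to between 0 and 10, from 3 (STAT5A against STAT5B) to between 0 and 13, from 99 (LSD1 against HDAC3) to between 0 and 403, and from 0 (no-target hairpin against wild type) to at most 122.

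Without the off-gene libraries the LSD1 and HDAC3 groups hold 2 and 1 libraries, and the lone HDAC3 library is assumed to vary like the other groups. Klf7, near 1 CPM in wild type, rested on 17 to 44 reads per library there.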
